A study of Mus musculus with 12 samples.

Results

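The acute phase genes *Saa1*, *Saa2*, *Crp* and *Fgg* were followed in mouse liver RNA-seq libraries from a study of doxorubicin (DOX) and 2 compounds known by the codes K35 and K27. The 4 genes were chosen with earlier results of these data known, and were taken by their symbols from a deposited table of 3799 genes. That table is a selection by the authors, by its name one of differentially expressed genes, rather than the whole transcriptome. Shares of all genes and adjusted p-values given here refer to that selection and not to all genes of the liver. A selection made on these same libraries would favour genes that differ between the groups. The adjusted p-values would then be too low and give no independent support for a difference. All 4 were present, and all 4 were among the 3317 tested genes, those averaging 1 FPKM or more (FPKM are fragments scaled by transcript length and by the depth of the library).

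The 12 libraries came from whole liver of male C57BL/6J mice aged 8 weeks, 3 libraries in each of 4 groups. Saline mice received vehicle without drug or compound. DOX mice received doxorubicin, an anthracycline that damages DNA, at 10 mg/kg into the peritoneum on days 0 and 7. DOX + K35 and DOX + K27 mice received the same doxorubicin and, from day 2, 50 mg/kg of K35 or K27 by gavage every other day, and liver was taken on day 20. No group received a compound without doxorubicin, so the compounds were compared with DOX and not on their own. The libraries are called here by the codes in the table: A1 to A3 for Saline, B1, B3 and B4 for DOX, C1, C2 and C4 for DOX + K35, and D1 to D3 for DOX + K27. B3, B4 and C4 could be tied to a group but not to a numbered replicate, and their group was inferred from the code letter alone. The sample labels and the table do not match here. B4 and C4 are absent from the labels, while the labels name a B2 and a C3 that the table lacks. B3 occurs in both but was likewise tied to its group only. Comparisons that involve DOX or DOX + K35 rest on this inference.

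Acute phase proteins are plasma proteins, made mainly by hepatocytes, whose synthesis changes when interleukin-1, interleukin-6 and related cytokines reach the liver. Interleukin-6 acts through its receptor, the shared subunit gp130 and the transcription factor STAT3, while interleukin-1 acts through NF-kB, and C/EBP factors take part in both. *Saa1* and *Saa2* encode serum amyloid A, small apolipoproteins carried on high-density lipoprotein, which are among the most inducible liver genes of the mouse. *Crp* encodes C-reactive protein, a pentraxin that is a strong acute phase reactant in humans and a modest one in mice. *Fgg* encodes the gamma chain of fibrinogen, the clotting protein that is abundant in liver at rest and increases in the acute phase.

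In GRCm38 with GENCODE M21 annotation, *Saa1* (ENSMUSG00000074115) lies on the minus strand at chr7:46740497-46742980 and *Saa2* (ENSMUSG00000057465) on the plus strand at chr7:46751790-46754313. The pair is divergent, with 8810 bases between the starts. *Crp* (ENSMUSG00000037942) lies on the plus strand at chr1:172698055-172833031 and *Fgg* (ENSMUSG00000033860) on the plus strand at chr3:83007724-83015049. All 4 are protein-coding genes, and the values are per gene. The longest coding transcripts of *Saa1* and *Saa2* were 87.3% identical, and 9.11% of all 50-base windows of *Saa1* occurred whole in *Saa2*, so reads may have been shared between them and the split between the pair is uncertain. *Crp* overlaps Gm38051 on the same strand and *Fgg* overlaps Gm30097 on the other strand. Whether reads were counted by strand is not given in the sources used here.

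The bases before the transcription start of each gene are shown because the serum amyloid pair moved together in the libraries and *Crp* moved with *Fgg*. The sequences are from RefSeq, GRCm38.p6, read 5′ to 3′ on the strand of the gene. Capitals mark matches to the C/EBP, NF-kB and TATA letters given after them. The *Saa2* stretch ends earlier because GENCODE starts that transcript further upstream than RefSeq does.
Saa1, chr7:46742981-46743230, minus strand: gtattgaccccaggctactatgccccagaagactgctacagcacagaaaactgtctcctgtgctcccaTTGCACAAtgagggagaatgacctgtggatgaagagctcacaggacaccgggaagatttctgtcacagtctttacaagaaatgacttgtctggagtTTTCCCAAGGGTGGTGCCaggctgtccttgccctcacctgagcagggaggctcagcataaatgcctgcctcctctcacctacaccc
Saa2, chr7:46751583-46751789, plus strand: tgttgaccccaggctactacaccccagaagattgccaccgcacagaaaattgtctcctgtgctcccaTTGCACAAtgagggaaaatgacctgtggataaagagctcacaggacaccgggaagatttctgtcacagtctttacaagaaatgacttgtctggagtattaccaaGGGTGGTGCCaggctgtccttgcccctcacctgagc
Crp, chr1:172697806-172698054, plus strand: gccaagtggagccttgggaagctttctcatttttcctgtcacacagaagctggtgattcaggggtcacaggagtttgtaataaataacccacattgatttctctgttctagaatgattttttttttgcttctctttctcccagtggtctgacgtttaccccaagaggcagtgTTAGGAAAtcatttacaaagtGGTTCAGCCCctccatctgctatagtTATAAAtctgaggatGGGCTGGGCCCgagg
Fgg, chr3:83007474-83007723, plus strand: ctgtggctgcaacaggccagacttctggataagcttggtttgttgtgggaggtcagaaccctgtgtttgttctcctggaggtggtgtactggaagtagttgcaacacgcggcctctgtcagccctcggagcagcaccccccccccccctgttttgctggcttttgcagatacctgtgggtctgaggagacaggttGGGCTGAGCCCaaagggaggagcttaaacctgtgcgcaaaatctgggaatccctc

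The 250 bases before the RefSeq starts of *Saa1* and *Saa2* were 94.8% identical, against 46.3% for *Crp* and *Fgg*. Letters were searched on both strands. TTNNGNAA (C/EBP) occurred 2 times before *Saa1*, 1 time before *Saa2*, 1 time before *Crp* and 0 times before *Fgg*, and it occurred in 36.8% of all 32536 RefSeq promoter windows of the same length. The NF-kB letters, 3 G, then 5 bases of any kind, then 2 C, occurred 1 time before each serum amyloid gene, 3 times before *Crp* and 2 times before *Fgg*, with matches on the opposite strands overlapping in the last 2 genes, and it occurred in 46.0% of all windows. In *Saa1* the nearer C/EBP match touches the NF-kB match, and they form 1 run of capitals. TATAAA occurred before *Crp* only and in 12.3% of windows. TTCNNNGAA (STAT3) occurred before none of the 4 genes and in 7.04% of windows. These are letter matches in short windows and say nothing of binding.

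The 4 genes stood at different levels, which can be compared because FPKM is scaled by transcript length. *Fgg* was between place 21 and place 47 from the top of the 3799 genes in all libraries, and *Crp* was between places 99 and 226. *Saa1* was at place 30 and *Saa2* at place 40 in Saline library A3. In the other 11 libraries they were at places 591 to 1508 and 891 to 2552.

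*Saa1* measured 7.88, 12.5 and 1117 FPKM in Saline libraries A1, A2 and A3. It measured 13.7, 10.9 and 6.21 FPKM in DOX libraries B1, B3 and B4, 31.3, 26.5 and 13.4 FPKM in DOX + K35 libraries C1, C2 and C4, and 29.2, 20.1 and 20.1 FPKM in DOX + K27 libraries D1, D2 and D3. Apart from A3, the Saline and DOX libraries occupied the same low range, all DOX + K27 libraries lay above it, and C4 lay within it.

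*Saa2* measured 4.10, 7.92 and 701 FPKM in A1, A2 and A3, and 10.4, 8.03 and 3.83 FPKM in B1, B3 and B4. It measured 16.4, 14.4 and 2.70 FPKM in C1, C2 and C4, and 17.5, 10.93 and 10.97 FPKM in D1, D2 and D3. The lowest value of all 12 libraries was that of C4, and the highest was that of A3.

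*Crp* measured 178, 183 and 218 FPKM in A1, A2 and A3, and 132, 76.6 and 40.2 FPKM in B1, B3 and B4. It measured 203, 213 and 179 FPKM in C1, C2 and C4, and 166, 178 and 118 FPKM in D1, D2 and D3. The DOX libraries were all below every Saline and every DOX + K35 library, and D3 fell among the DOX values.

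*Fgg* measured 1690, 1543 and 2076 FPKM in A1, A2 and A3, and 1249, 569 and 233 FPKM in B1, B3 and B4. It measured 1533, 1599 and 2456 FPKM in C1, C2 and C4, and 1619, 1747 and 967 FPKM in D1, D2 and D3. The DOX libraries were again all below the Saline and DOX + K35 libraries, D3 was below B1, and the highest value was that of C4.

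**Figure D1:**
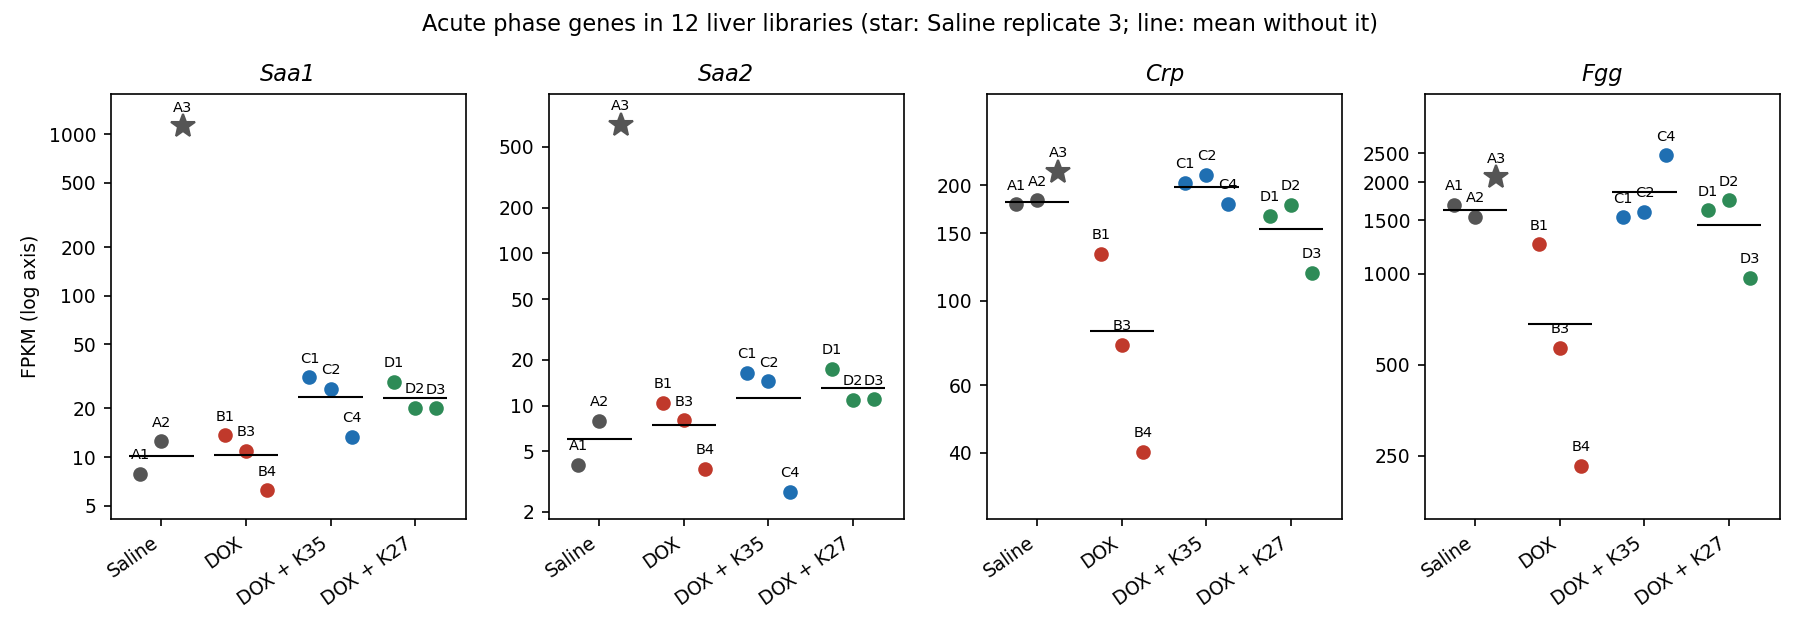
FPKM of *Saa1*, *Saa2*, *Crp* and *Fgg* in each of 12 libraries (log axes, a range per gene), by group, with library codes; points are libraries, the star is Saline library A3 and black lines are group means without A3. A3 stands at 1117 FPKM for *Saa1* and 701 FPKM for *Saa2*, far above the other 11 libraries, while *Crp* and *Fgg* are lowest in the DOX libraries.

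Saline library A3 carried a high signal of the serum amyloid pair within the untreated group. Its *Saa1* value was 109 times the mean of A1 and A2 and 35.7 times the highest of the other 11 libraries, and its *Saa2* value was 117 and 40.1 times those levels. The ratio of *Saa1* to *Saa2* was 1.59 in A3, against 1.92 in A1 and 1.58 in A2, so both genes were higher by a similar factor. *Crp* and *Fgg* were 1.20 and 1.28 times the mean of A1 and A2 there.

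Because of A3, the Saline mean was 379 ± 639 FPKM (SD, n = 3) for *Saa1* and 238 ± 401 FPKM (SD, n = 3) for *Saa2*. Without A3 the means were 10.2 ± 3.28 and 6.01 ± 2.70 FPKM (SD, n = 2). Of the 3317 genes tested, 10 reached at least 5 times both other Saline libraries in A3 (0.301%), and 3 reached 5 times all other 11 libraries. In the remaining libraries the first count ran from 0 to 17, the highest being that of C4.

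Other acute phase genes were also high in A3, and those named next were picked after their values were seen. *Orm3*, an orosomucoid, measured 116 FPKM in A3, 18.2 times the mean of A1 and A2. *Lrg1*, leucine-rich alpha-2-glycoprotein, measured 1345 FPKM, 8.62 times that mean. *Steap4*, a metalloreductase, was at 2.65 times, *Itih3*, an inter-alpha-inhibitor heavy chain, at 2.62 times, *Serpina3n*, a serine protease inhibitor, at 2.40 times and *Lbp*, the lipopolysaccharide-binding protein, at 2.06 times. From a list of 32 positive acute phase genes, 17 were in the table. A3 was the highest Saline library for 15 of those 17 and the highest of all 12 libraries for 8. Some of these excesses were small, at 1.10 times the higher of A1 and A2 for *Itih4* and 1.13 times for *Cfb*. In the DOX group, B1 was likewise the highest library for 15 of the 17 and B4 the lowest for 16. The same counts over all genes are not given here.

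Kupffer cell markers (6 of 9 listed were in the table: *Vsig4*, *Cd5l*, *Adgre1*, *Marco*, *C1qa* and *C1qc*) summed to 202 FPKM in A3, and the lowest Saline library was at 73.4 FPKM. *Lyz2*, listed for monocytes, was also highest in A3, at 69.7 FPKM. None of the 9 neutrophil, 5 lymphocyte or 4 cholangiocyte markers was among the 3799 genes. In bulk liver, fewer cells of a type and less RNA per cell cannot be told apart. Hepatocyte markers (3 of 6: *Apoa1*, *Cps1* and *Tat*) summed to 5774 to 10649 FPKM over the 12 libraries, of which *Apoa1* alone made up 4464 to 10156 FPKM. *Cps1*, an enzyme of the urea cycle, measured 447, 427 and 224 FPKM in A1, A2 and A3, and *Tat*, which degrades tyrosine, measured 740, 697 and 637 FPKM. The part of these cells in the A3 values was not tested.

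DOX + K35 library C4 had another pattern, and its genes were likewise picked after their values were seen. *Lrg1* measured 1028 FPKM in C4 against 197 and 229 FPKM in C1 and C2, and *Serpina3n* 515 FPKM against 189 and 224 FPKM. *Fgg* was 1.57 times the mean of C1 and C2 in C4, whereas *Saa1* was 0.463 times and *Saa2* 0.175 times that mean. C4 was the highest of all 12 libraries for 7 of the 17 listed genes and the lowest for 1, *Saa2*, and the same counts over all genes are not given here. *Serpina6*, corticosteroid-binding globulin, a negative acute phase protein, measured 15.0 FPKM in C4 and at least 174 FPKM in the other 11 libraries. The ratio of *Saa1* to *Saa2* was 4.94 in C4 and 1.31 to 1.92 in the rest.

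**Figure D2:**
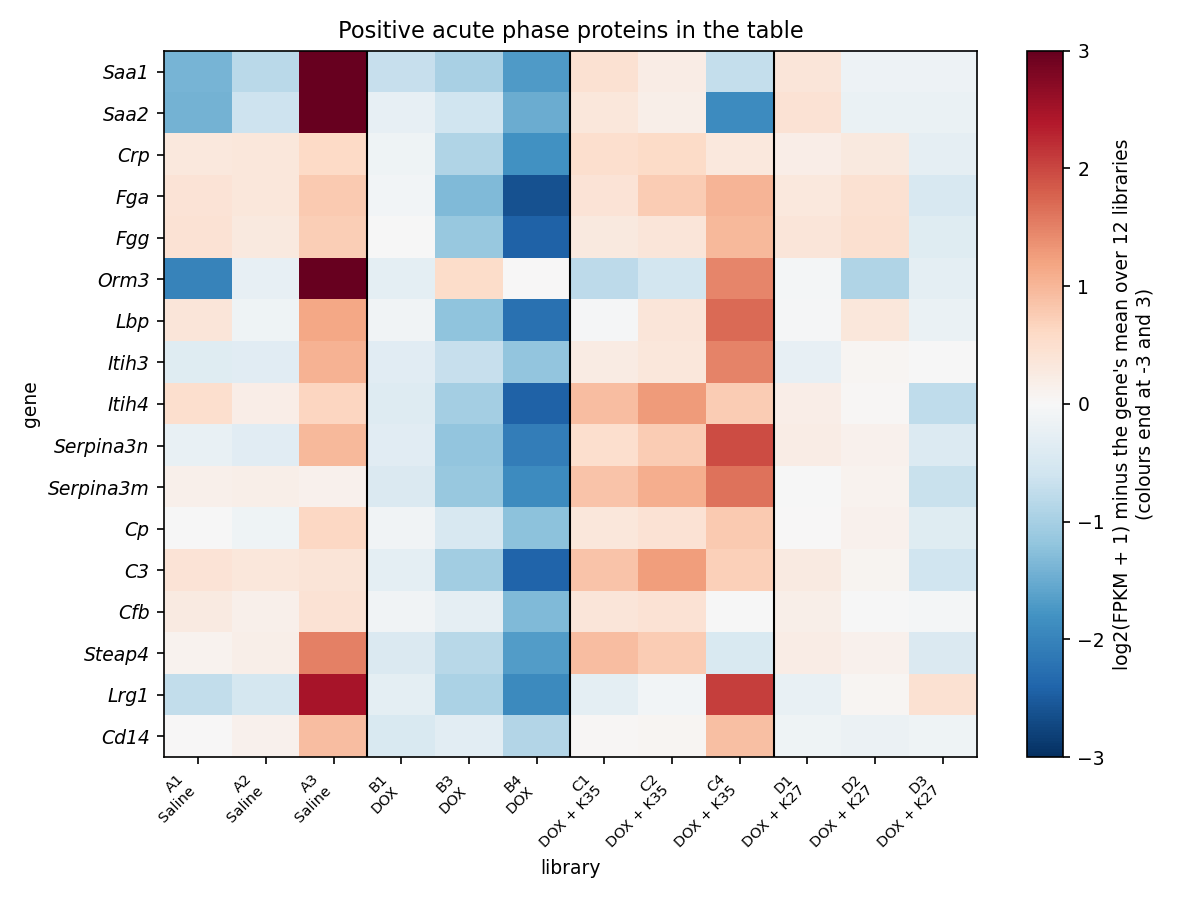
Heat map of the 17 listed positive acute phase genes in the table (rows) over the 12 libraries (columns, black lines between groups), coloured by log2(FPKM + 1) minus the mean of the gene over all libraries, with colours ending at -3 and 3. *Saa1*, *Saa2*, *Orm3* and *Lrg1* are darkest red in A3, *Serpina3n* and *Lrg1* in C4, and B4 is the lowest library for 15 of the 17 genes. B4 also had the lowest median of all tested genes, 3.35 FPKM.

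The first comparison, DOX vs. Saline, asks what doxorubicin did to these genes. Group means were 83.0 ± 46.4 FPKM in DOX and 193 ± 21.4 FPKM in Saline for *Crp*, and 683 ± 518 and 1769 ± 275 FPKM for *Fgg* (SD, n = 3 each). The log2 differences in log2(FPKM + 1) were -1.36 (SE 0.39) for *Crp* and -1.68 (SE 0.50) for *Fgg*. Both had adjusted p = 0.0612 by limma with Benjamini-Hochberg adjustment over the 3317 genes, which did not pass 0.05. The libraries of the groups did not overlap for either gene, which held in this direction for 23% of all genes tested, and 0.181% of genes were called in either direction.

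Without A3 the values were -1.27 for *Crp* (adjusted p = 0.0446) and -1.55 for *Fgg* (adjusted p = 0.0479) in the limma fit, and both passed. The background was then far wider, with 35.9% of genes called in either direction and 31.3% called lower. The unadjusted limma p of each gene was larger without A3 than with it, so that the change in the adjusted values came with the wider background and not with a lower p of *Crp* or *Fgg*. Without DOX library B1, A3 being kept, they also passed, at -1.77 and -2.27, where 83 genes were called higher and 1391 lower. Without B4, the lowest library, they were -0.93 and -1.06 with adjusted p = 0.182 for both in limma.

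*Saa1* differed by -2.25 (SE 1.23, adjusted p = 0.156) and *Saa2* by -2.00 (SE 1.28, adjusted p = 0.2204) in the same limma fit, with wide confidence intervals. Without A3 the values were -0.022 for *Saa1* (adjusted p = 0.971) and 0.23 for *Saa2* (adjusted p = 0.744). The lower level of serum amyloid in DOX thus rested on that single Saline library. Its removal left B1, B3 and B4 in the range of A1 and A2 or close to it.

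The second comparison, DOX + K35 vs. DOX, asks whether the compound changed these genes in doxorubicin-treated liver. *Crp* was higher by 1.40 on the log2 scale (SE 0.39, adjusted p = 0.00884), a fold of 2.64, and *Fgg* by 1.73 (SE 0.50, adjusted p = 0.00990), a fold of 3.31, by limma. All DOX + K35 libraries lay above all DOX libraries for both genes. Over all genes 46% were called higher and 10.7% lower in this comparison, and 44.3% did not overlap in the higher direction, so that *Crp* and *Fgg* moved with a large share of the table. The median log2 difference of all genes was 0.46, and 87.2% and 95.7% of genes had a smaller value than *Crp* and *Fgg*.

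Both genes stayed past the threshold when any of the 12 libraries was left out, with ranges of 0.97 to 1.82 for *Crp* and 1.11 to 2.32 for *Fgg*. With each library scaled to a common median ratio, the median of all genes moved to -0.014, calls over the table were 1255 higher and 1366 lower in place of 1527 and 356, and *Crp* and *Fgg* were still higher at 0.78 and 1.10 (adjusted p = 0.0168 and 0.0220, limma).

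*Saa1* was at a mean of 23.7 ± 9.27 FPKM in DOX + K35 and 10.3 ± 3.76 FPKM in DOX (SD, n = 3 each). Its log2 difference of 1.11 had an SE of 1.23 and adjusted p = 0.442 when the spread of the Saline group entered the limma fit, and an SE of 0.36 and adjusted p = 0.0176 without A3. In that fit 58.3% of all genes were called in either direction. A limma fit of the DOX and DOX + K35 libraries only gave adjusted p = 0.0435 with the same difference. That fit called 1404 of 3317 genes higher and 247 lower. Over 8 alternatives other than leaving out a library, the *Saa1* difference ran from 0.45 to 1.18. Of these 8, 1 passed the threshold, and so did 1 of 12 fits that left out a library. C4, at 13.4 FPKM, lay just under B1, at 13.7 FPKM.

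*Saa2* had a log2 difference of 0.33 (SE 1.28, adjusted p = 0.824), and of 1.05 without C4. Its sign was not stable, at -0.20 with median-ratio scaling. Neither serum amyloid gene passed in the limma fit of all 12 libraries.

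The third comparison, DOX + K27 vs. DOX, gave differences of 1.02 for *Crp* and 1.35 for *Fgg*, each with adjusted p = 0.155, and 1.14 for *Saa1* and 0.80 for *Saa2* (adjusted p = 0.569 and 0.724, limma). None of the 4 genes passed the threshold, and 0.0603% of all genes did. *Crp* and *Fgg* were among the 29.3% of genes with an unadjusted limma p under 0.05. Without B1, both passed at 1.43 and 1.94 (adjusted p = 0.0238 for each, limma), as did 1073 genes that were higher and 24 that were lower.

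All DOX + K27 libraries were above all DOX libraries for *Saa1* and *Saa2*, as for 15.9% of genes in this direction. For *Crp* and *Fgg*, D3 overlapped with the DOX group. Without A3, *Saa1* kept its difference of 1.14 with adjusted p = 0.139 in limma.

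The compounds were then compared with each other at the same dose and time. DOX + K35 minus DOX + K27 was 0.38 for *Crp* (95% confidence interval -0.46 to 1.22, adjusted p = 0.444) and 0.38 for *Fgg* (-0.68 to 1.44, adjusted p = 0.544) by limma. It was -0.027 for *Saa1* (-2.65 to 2.60, adjusted p = 0.985) and -0.47 for *Saa2* (-3.21 to 2.27, adjusted p = 0.774). No difference was shown for any of the 4 genes. The width of the serum amyloid intervals rested on A3, which is in neither group but enters the shared spread, and without it they were -0.81 to 0.75 for *Saa1* and -1.56 to 0.62 for *Saa2*. Over all genes 2.11% were called. *Crp* was higher in every DOX + K35 library than in every DOX + K27 library, as were 30.6% of genes.

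Compared with Saline, *Crp* and *Fgg* were at 0.043 (95% confidence interval -0.79 to 0.88) and 0.051 (-1.01 to 1.11) in DOX + K35, and at -0.34 (-1.17 to 0.50) and -0.33 (-1.39 to 0.73) in DOX + K27. None passed in limma, and 0.181% and 0.121% of all genes did. *Saa1* and *Saa2* were at -1.13 and -1.67 in DOX + K35 and -1.11 and -1.20 in DOX + K27. Without A3 these became 1.09 and 0.57, and 1.12 and 1.03, with the sign reversed for all 4 values and adjusted p of at least 0.384 in limma.

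**Figure D3:**
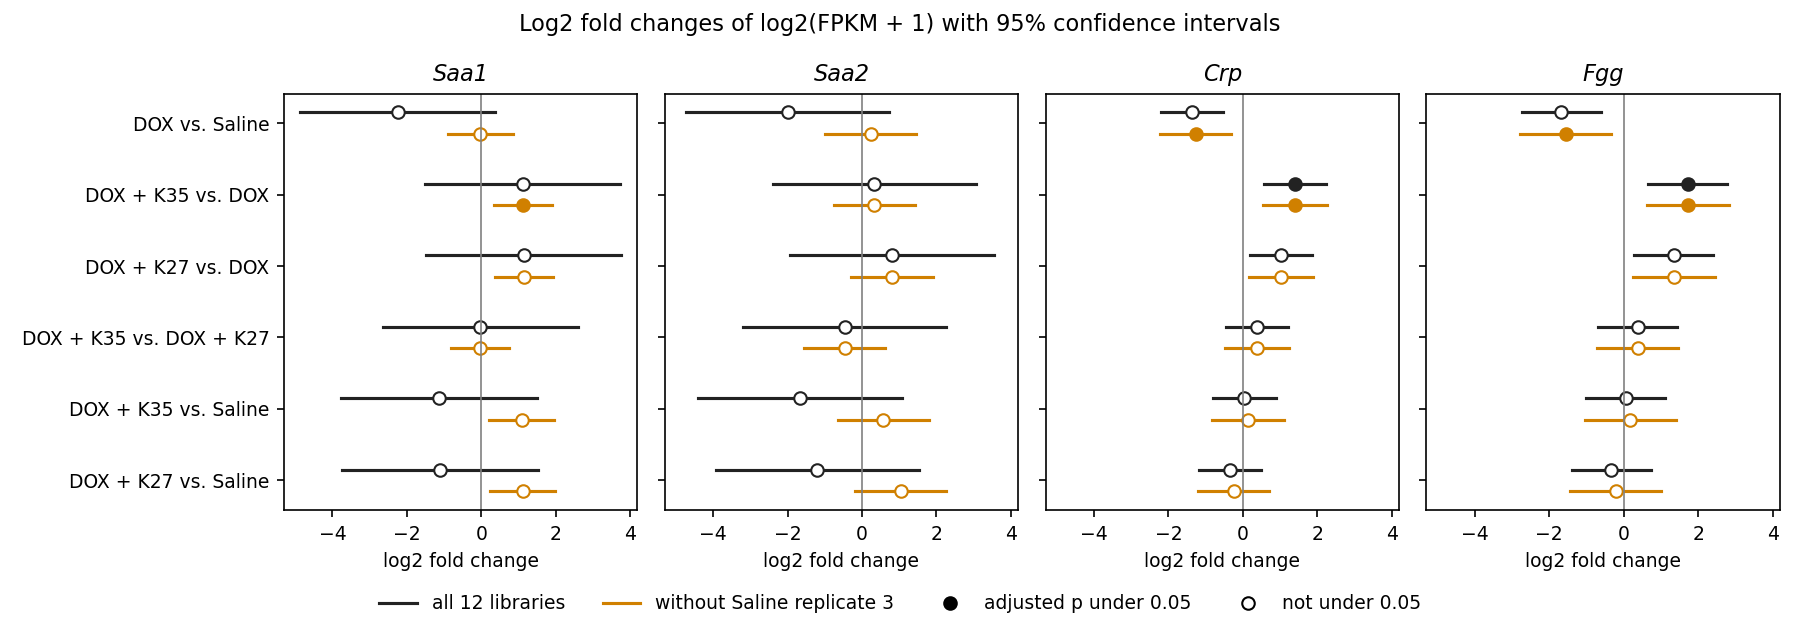
Log2 fold changes of log2(FPKM + 1) for the 6 comparisons (rows) with 95% confidence intervals, from the limma fit of all 12 libraries (black) and without Saline library A3 (orange); filled points have an adjusted p under 0.05. The intervals of *Saa1* and *Saa2* narrow and shift without A3, whereas *Crp* and *Fgg* in DOX + K35 vs. DOX are past the threshold in both fits.

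The mitochondrially encoded share of each library moved in the opposite direction to *Crp* and *Fgg* over the 12 libraries. The 13 mitochondrially encoded genes took 73.6 ± 10.7% of the summed FPKM in DOX against 53.0 ± 7.77% in Saline (SD, n = 3 each). The share was 42.0 ± 5.85% with K35 and 57.2 ± 9.49% with K27 added to doxorubicin (SD, n = 3 each). The summed FPKM of all other genes was 132696, 140598 and 132778 in A1, A2 and A3, and 122006, 109708 and 104443 in B1, B3 and B4. The part of the share in the *Crp* and *Fgg* values was not tested. The rank order of the DOX libraries was the same for the share and, reversed, for *Crp* and *Fgg*, with B4 at 83.3%, B3 at 75.3% and B1 at 62.2%. D3, the lowest DOX + K27 library for both genes, had the highest share of its group, 68.0%. A3 stood off this order, with 61.9% and the highest *Crp* value of the series.

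Over 12 libraries the correlation of log2 *Crp* with the share was r = -0.871 (rho = -0.762), and that of *Fgg* was r = -0.803 (rho = -0.538). These are descriptions, since the share and the gene come from the same library and the groups differ in both. Without the DOX libraries the values were r = -0.616 (rho = -0.433) for *Crp* and r = -0.303 (rho = 0.1) for *Fgg* over 9 libraries. For *Saa1* and *Saa2* the values over 12 libraries were r = -0.106 and -0.016. These 2 values rested on A3. Without it r was -0.615 for *Saa1* and -0.342 for *Saa2* over 11 libraries, beside -0.943 for *Crp* and -0.866 for *Fgg*.

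Per 100000 FPKM of all other genes, *Crp* still stood at 134, 130 and 164 in A1, A2 and A3 and at 108, 69.8 and 38.5 in B1, B3 and B4. *Fgg* stood at 1274, 1097 and 1563 against 1024, 518 and 223 on that scale. With the mitochondrially encoded genes left out, the limma difference in DOX + K35 vs. DOX was 1.10 for *Crp* (adjusted p = 0.0188) and 1.42 for *Fgg* (adjusted p = 0.0183), and in DOX vs. Saline it was -1.09 and -1.40 (adjusted p = 0.0850 for each). Erythroid markers (4 of 5 in the table) summed to 821 to 1135 FPKM in DOX and 330 to 506 FPKM in Saline, and Kupffer cell markers to 18.5 to 53.0 FPKM in DOX. Of the hepatocyte markers, *Cps1* and *Tat* were at -0.89 and -0.88 in DOX vs. Saline and *Apoa1* at 0.46 (adjusted p of 0.0861, 0.0617 and 0.216, limma). The part of these cells in the *Crp* and *Fgg* values was not tested.

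**Figure D4:**
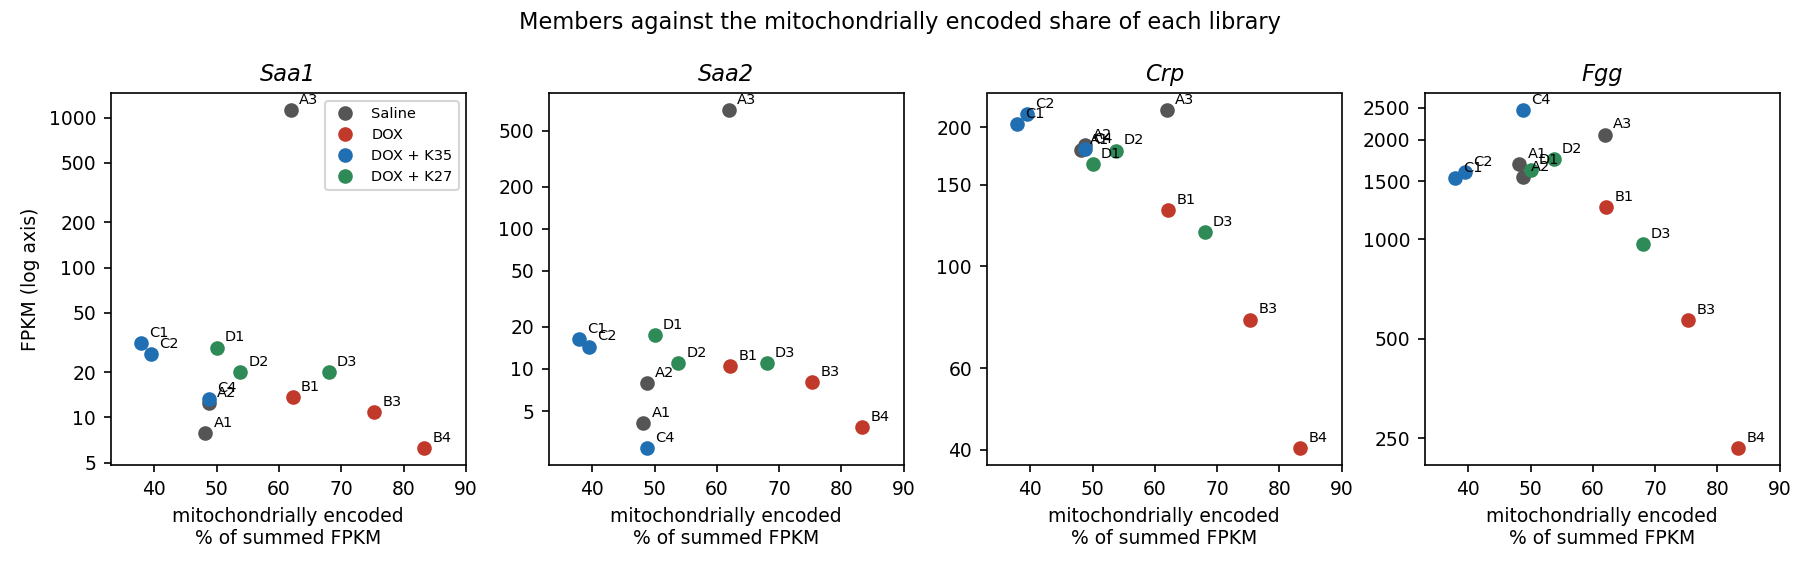
FPKM of each gene (log axes, a range per gene) against the percent of summed FPKM taken by 13 mitochondrially encoded genes, for 12 libraries coloured by group and labelled by code. *Crp* and *Fgg* are lowest at the high shares of B3 and B4, whereas *Saa1* and *Saa2* are set apart by A3 at a share of 61.9%.

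A factor common to all genes of a library cancels in the ratio of 2 of them. *Fgg* to *Crp* ran from 5.78 to 13.7, and was 9.44, 7.42 and 5.78 in B1, B3 and B4, falling as the mitochondrially encoded share rose. The ratio of *Fgg* to *Fga*, the alpha chain of fibrinogen, ran from 0.992 to 1.51. In exact two-sided permutation tests of the *Saa1* to *Saa2*, *Fgg* to *Crp* and *Fgg* to *Fga* ratios over the 6 comparisons, 18 in all, the lowest p was 0.1, the smallest that 3 against 3 libraries allow, and the lowest adjusted value was 0.3.

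The wider acute phase list was read for context. Of 32 positive acute phase genes the 17 in the table included the 4 members. In DOX vs. Saline none was called by limma, 11 of 17 had an unadjusted p under 0.05 as did 47.4% of all genes, and all 17 values were negative, with a median of -1.45 beside -0.34 for all genes. Without A3, 6 of 17 were called lower, a share near the 31.3% of all genes, and 2 of 17 values were positive, those of *Saa2* and *Orm3* (1.21).

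In DOX + K35 vs. DOX, 12 of the 17 rose and none fell, with a median of 1.42 beside 0.46 for all genes, of which 46% were called higher. *Serpina3m* and *Serpina3n*, serine protease inhibitors, rose by 2.35 and 2.26, *Itih4*, an inter-alpha-inhibitor family member, by 2.26 and *C3*, the central complement component, by 2.18 (adjusted p of 0.00496, 0.00563, 0.00499 and 0.00516, limma). *Serpina3m* measured 75.3, 45.9 and 27.1 FPKM in B1, B3 and B4 and 185, 219 and 321 FPKM in C1, C2 and C4. The 5 genes that did not pass were *Saa1*, *Saa2*, *Orm3*, *Cfb* and *Lrg1*. Erythroid markers fell in this comparison (4 of 4 tested, 62.2 to 596 FPKM summed in DOX + K35), where 10.7% of all genes were called lower. Called higher, as were 46% of all genes, were 4 of 6 Kupffer cell markers (53.1 to 84.3 FPKM summed), both endothelial markers in the table, *Pecam1* and *Lyve1*, and 2 of 3 hepatocyte markers, *Cps1* by 1.77 and *Tat* by 0.95 (adjusted p of 0.00551 and 0.0193, limma). Their part in the list was not tested.

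In DOX + K27 vs. DOX none of the 17 was called and 8 had an unadjusted p under 0.05 in limma, as did 29.3% of all genes, with a median of 1.02 beside 0.36. In DOX + K35 vs. DOX + K27 none was called and 4 had an unadjusted p under 0.05 (28.4% of all genes did), with a median of 0.48 beside 0.09. Against Saline none was called for either compound in limma, with 1 and 0 genes at an unadjusted p under 0.05 for DOX + K35 and DOX + K27, where 16.6% and 5.94% of all genes reached it.

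Of 7 genes of fibrin formation and removal, *Fga*, *Fgg*, *F2* (prothrombin), *F13b* (a factor XIII subunit) and *Plg* (plasminogen) were in the table. All 5 rose in DOX + K35 vs. DOX, by 1.47 to 2.07 with adjusted p up to 0.00990 in limma, where 46% of all genes were called higher. *Fga* measured 895, 376 and 155 FPKM in B1, B3 and B4 and 1255, 1612 and 1915 FPKM in C1, C2 and C4, a rise of 2.07. In DOX vs. Saline the 5 values ran from -1.86 to -1.13 with adjusted p of 0.0612 to 0.0627, and none was called. Without A3 all 5 were called lower, at adjusted p of 0.0393 to 0.0479 in limma, beside 31.3% of all genes. In DOX + K27 vs. DOX they ran from 0.92 to 1.44, and none was called, though all 5 had an unadjusted p under 0.05 in limma, as did 29.3% of all genes.

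Of 37 cytokine, receptor and transcription factor genes upstream of the acute phase, 10 were in the table. *Stat3*, *Ptpn11* (the phosphatase SHP2), *Il6st* (gp130) and *Il6ra* (the interleukin-6 receptor) rose in DOX + K35 vs. DOX by 1.32, 1.29, 1.07 and 0.94 (adjusted p of 0.00567, 0.00499, 0.00557 and 0.00734, limma), and none of the 10 fell. Called higher were thus 4 of 10, a share below the 46% of all genes, and 5 of the 10 values were negative. *Stat3* measured 9.85, 8.49 and 5.47 FPKM in B1, B3 and B4 and 16.7, 23.2 and 23.1 FPKM in C1, C2 and C4, and its highest value was 24.1 FPKM in A3. In DOX vs. Saline only *Il1rn*, the interleukin-1 receptor antagonist, was called in the fit of all 12 libraries, at -1.29 (adjusted p = 0.0252, limma), and *Stat3* was at -1.11 (adjusted p = 0.0612). Without A3, 5 of the 10 were called lower, beside 31.3% of all genes. *Il1rn* was also lower in DOX + K35 than in Saline, at -1.31 (adjusted p = 0.0281, limma), and did not pass without A3, at -1.16 (adjusted p = 0.0503). It measured 2.92, 2.84 and 4.34 FPKM in A1, A2 and A3, and 1.10, 0.53 and 0.72 FPKM in B1, B3 and B4. None of the 10 was called in DOX + K27 vs. DOX, where 0.0603% of all genes were, and 5 had an unadjusted p under 0.05 in limma, as did 29.3% of all genes.

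Of 8 negative acute phase genes 3 were in the table. *Trf*, transferrin, rose by 2.04 in DOX + K35 vs. DOX (adjusted p = 0.00821), while *Serpina6* and *Apoa1*, the main protein of high-density lipoprotein, were at -0.84 and -0.45 (adjusted p = 0.440 and 0.200, limma). Of 8 genes for receptors of serum amyloid A or C-reactive protein only *Scarb1*, the scavenger receptor of high-density lipoprotein, was in the table, and it rose by 1.36 (adjusted p = 0.0111, limma). None of these 4 genes was called in the other comparisons in the fit of all 12 libraries. Without A3, *Trf* and *Scarb1* were called lower in DOX vs. Saline, at -1.88 and -1.23 (adjusted p = 0.0408 and 0.0489, limma).

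The genes most like each member were ranked by Pearson correlation of log2 values over 12 libraries, with the 4 members left out of the ranking. *Saa1* and *Saa2* correlated with each other at r = 0.978, above every gene ranked. For *Saa1* they were *Tgtp1*, an interferon-induced GTPase, at r = 0.954, then *Serpina3g*, *Tmem176a*, *Ang* and *Tifa* down to 0.870. For *Saa2* they were *Tgtp1* at 0.956, *Tmem176a*, *Serpina3g*, *Hk3* and *Tifa* down to 0.890. These rankings rest on A3: without it the first for *Saa1* was *Col4a1*, a basement membrane collagen, at 0.919, followed by *Mphosph8*, *Parp12*, *Kti12* and *Nol9*, and for *Saa2* it was *Serpinh1*, a collagen chaperone, at 0.866, followed by *Sult2a7*, *Ifi47*, *Serpina3g* and *Gbp2*. *Saa1* and *Saa2* correlated with each other at 0.842 over these 11 libraries.

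For *Crp* the most alike genes were *Aig1*, *Plg*, *Fga*, *Ldha* and *Cfi*, at 0.985 to 0.979, and without A3 they included *F2*, *Plg*, *Coasy* and *Dpy30*, at 0.994 to 0.993. For *Fgg* they were *Fga*, *Cd302*, *Lcat*, *Lsm4* and *Litaf*, at 0.992 to 0.977, and without A3 *Cd302*, *Fga*, *Rtraf*, *Lcat* and *Atraid*. Values of at least 0.9 were common for this pair, reached by 13.8% of all genes with *Crp* and 7.54% with *Fgg*, but by 0.0603% with *Saa1* and 0.151% with *Saa2*, the other members counted. These shares rested on A3 too, and without it they were 31.2%, 19.7%, 0.0301% and 0%. *Crp* and *Fgg* correlated at r = 0.966 (rho = 0.664) over 12 libraries and at 0.686 (rho = 0.200) over the 9 without DOX. These correlations describe libraries of 4 groups and share the composition of each library.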

How the data were processed

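RNA-seq of poly-A RNA from 12 mouse livers was used. The authors deposited 1 table of 3799 selected genes, 280 of them newly assembled loci. Per the authors' table the values are scaled by length and library and were read as FPKM, although the header names no unit (with TPM, each library would differ by 1 factor). The submitters' processing notes name HISAT2, edgeR, DESeq2 and GRCm38 without role or version. Counts were not used here, so depth is unknown and no counting interval is given. Low values gave no whole multiples of a read.

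The 4 members were chosen, and the gene lists written, with earlier results of these data known. Values were taken as log2(FPKM + 1), genes averaging under 1 FPKM were dropped (3317 remained), and a one-way model over 12 libraries was fitted with limma 3.58.1 (trend, R 4.3.3) for 6 comparisons, with Benjamini-Hochberg adjustment and a threshold of 0.05. P-values weigh a difference against the spread of libraries within groups, pooled over the 4 groups. The fit was tested on simulated data.

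From each list, up to 4 called genes with the largest log2 difference per comparison are named, and, where fewer than 2 passed, up to 2 defining members. Beyond that, the genes high in A3 or C4 were named after their values were seen. The 5 genes most like each member were ranked by Pearson correlation, of which 1 is not reported here. Within-library ratios were compared by exact permutation tests in scipy 1.17.1. Deviations of same-numbered libraries from their group means correlated at 0.258, 0.176 and 0.474 between Saline and DOX + K27, where all numbers were shared. Over all same-numbered pairs the values ran from 0.109 to 0.474. A replicate block, by number only, was therefore also fitted over the numbered libraries of all groups. It was used for the comparisons that left out the DOX group, and no call of a member changed.

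Alternatives were pseudocount 0.1, all 3799 genes, scaling to a median ratio or by quantiles, leaving out mitochondrially encoded genes, the 20 highest genes or each library in turn, limma without the trend, fits of 2 groups only, and a replicate block. Libraries correlated at 0.923 to 0.991 within groups, and 0 pairs were identical. Motifs were searched in RefSeq promoters of GRCm38.p6.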

Additional observations from a re-analysis of the deposited data

How the results depend on the processing

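Of 360 results of leaving out a library, 334 stayed the same, as did 238 of 270 under the other alternatives. For a member, this meant the same direction and side of the threshold. For the number of listed acute phase genes called, it meant an equal number or one of similar size. In DOX vs. Saline, *Crp* passed at -0.93, -0.73 and -0.78 and *Fgg* at -1.24, -1.05 and -1.09 with median-ratio scaling, quantile normalization and the 20 highest genes left out, with 6, 4 and 6 listed acute phase genes called in place of 0. Leaving out a library gave -1.77 to -0.93 for *Crp*, -2.27 to -1.06 for *Fgg*, -3.51 to -0.022 for *Saa1*, -3.32 to 0.23 for *Saa2* and 0 to 12 listed genes, the highest without B1, where 1391 of 3317 genes were lower. In DOX + K35 vs. DOX, *Saa1* passed at 1.11 when only these groups were fitted, where 1404 of 3317 genes were called higher and 247 lower. *Saa2* turned to -0.20, -0.20 and -0.29 with the same 3 scalings. Leaving out a library gave 0.82 to 1.46 for *Saa1* and -0.068 to 1.05 for *Saa2*. In DOX + K27 vs. DOX the ranges were 0.59 to 1.43 for *Crp*, 0.73 to 1.94 for *Fgg* and 0 to 8 listed genes, the highest of each without B1, where 1073 of all genes were higher. In DOX + K35 vs. DOX + K27 they were -0.26 to 0.32 for *Saa1*, -0.87 to 0.25 for *Saa2* and 0 to 2 listed genes, and the same 3 scalings called 1 each. Against Saline, leaving out a library gave for DOX + K35 -2.40 to 1.09 for *Saa1*, -2.99 to 0.57 for *Saa2*, -0.010 to 0.13 for *Crp* and -0.17 to 0.17 for *Fgg*, and for DOX + K27 -2.37 to 1.12 for *Saa1* and -2.52 to 1.03 for *Saa2*. *Crp* and *Fgg* in DOX + K35 vs. Saline turned to -0.14 and -0.14, -0.069 and -0.044, and -0.096 and -0.089 with the 3 scalings. With a replicate block over the numbered libraries only, *Saa1* and *Saa2* were 1.39 and 1.31 in DOX + K35 vs. DOX + K27 and 0.29 and 0.11 in DOX + K35 vs. Saline, where *Fgg* was -0.24. The same libraries without the block, chosen after seeing the data, gave 0.32 and 0.25 and, for *Fgg*, -0.17. Both fits called 3 listed genes in DOX + K35 vs. DOX + K27. With 2 numbered DOX + K35 libraries the numbers are only numbers there. No paired analysis was possible because 1 numbered DOX library remained, for the comparisons with DOX. Apart from the values named, the cause of these changes was not tested. Over all genes, calls in DOX vs. Saline went from 1 higher and 5 lower to 615 and 385 with median-ratio scaling and 947 and 120 without the 20 highest genes, and in DOX + K35 vs. DOX + K27 from 14 higher and 56 lower to 307 and 370 with the numbered libraries alone and to 834 and 614 with the block added. With no depth known, differences at the low values of *Saa2* cannot be set against counting error.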
